A study of Mus musculus with 20 samples.

Results

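Amino acid transporters were followed in 20 fetal mouse livers collected at E17.5, on the C57BL/6 background, after the dams had fasted for 24 h. The genes were taken by name from 7 solute carrier families, Slc1a, Slc3a, Slc6a, Slc7a, Slc36a, Slc38a and Slc43a, and 60 of the 45802 gene entries matched. Of these, 29 were tested, because they reached a log2 value of 0 in at least 4 of the 20 libraries, out of 11807 tested genes in all. The name is a family name more than a function: the Slc6a family also holds creatine, betaine and monoamine carriers, and Slc43a3 moves purine nucleobases. There were 5 groups of 4 fetuses, balanced for sex (2 female, 2 male). In the Ppara arm, dam and fetus were both heterozygous (HetDam_HetFetus), or the dam was a Ppara knockout and the fetus heterozygous (KODam_HetFetus), or both were knockouts (KODam_KOFetus), so that every fetus in this arm lacked at least 1 working copy of Ppara. In the Cpt2 arm, the fetuses were Cpt2f/f, and their dams were either Cpt2f/f (FloxDam_FloxFetus) or Cpt2f/f carrying Albumin-Cre (Cpt2LKODam_FloxFetus), a Cre driven by a hepatocyte promoter that deletes Cpt2 in the liver of the dam. The titles call the Cpt2-arm fetuses wild type.

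Amino acids cross the membrane through carriers that differ in substrate and in driving force. Sodium-coupled carriers of the Slc1a, Slc6a and Slc38a families can load a cell against a gradient, Slc36a carriers use protons, cationic carriers of Slc7a take up arginine and lysine, and Slc43a carriers are facilitative. The light chains of Slc7a are exchangers that reach the surface only when bound to a heavy chain, Slc3a1 or Slc3a2. The fetal liver takes amino acids from the umbilical circulation for protein synthesis, and at this stage it is also a site of blood formation, with a large erythroid compartment. Ppara encodes the nuclear receptor that turns on fatty acid oxidation in fasting, and Cpt2 an enzyme that long-chain fatty acids need for oxidation in mitochondria.

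Every library had values for 23334 to 26255 gene entries on a common quantile-normalized log2 scale. What was measured before the logarithm was taken is not stated, so levels are compared between groups for 1 gene at a time; mean values over the 20 libraries served only to choose 6 genes whose libraries are listed, and no order of levels between genes is read from them. Ppara stood at 2.86 to 3.47 in HetDam_HetFetus and at 1.87 to 2.48 in KODam_KOFetus, and in KODam_HetFetus it was 2.17, 1.81, 3.05 and 3.22 in replicates 1 to 4. Replicates 1 and 2, which share a dam number in the labels and are presumed littermates, thus had Ppara levels of the knockout fetuses. Acaa1b, a peroxisomal thiolase and a classical PPARA target, stood at 3.73 to 4.55 in all 4 KODam_HetFetus libraries and at -0.91 to 0.03 in KODam_KOFetus, so by its target gene that pair was unlike the knockouts. Transcripts of other tissues stood out in 4 libraries, judged by marker lists summed on the linear scale without their leading gene. Skeletal muscle markers summed to 140 in HetDam_HetFetus replicate 4 and 189 in KODam_KOFetus replicate 2, against at most 7.05 elsewhere. Exocrine pancreas markers reached 258 in Cpt2LKODam_FloxFetus replicate 2 (at most 8.02 elsewhere) and intestine markers 104 in HetDam_HetFetus replicate 1 (at most 28.6 elsewhere). The depth of the libraries is unknown. Littermates share a dam, so the 4 livers of a group are not fully independent, and p-values that treat them as such may be too small. KODam_KOFetus replicates 1 and 2 and FloxDam_FloxFetus replicates 3 and 4 also share a dam number each. Calls that changed without the 4 libraries with other-tissue markers, or without a pair of presumed littermates, are given with their values. In what follows, the 4 libraries are those with other-tissue markers.

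When the dam lacked Ppara, 12 of the 29 transporters changed in the heterozygous fetal liver: 4 were higher and 8 lower at an adjusted p under 0.05 by limma, in KODam_HetFetus minus HetDam_HetFetus. Over all genes tested, 39% were called in this comparison, 26.4% higher and 12.6% lower. The share of transporters called was therefore near that of all genes, while 27.6% of them were lower and 13.8% higher. The median difference was -0.01 for the transporters and 0.14 for all genes on the log2 scale. The genes that rose were Slc38a5, Slc6a8, Slc7a1 and Slc43a3, and those that fell were Slc3a1, Slc6a12, Slc1a4, Slc7a7, Slc36a2, Slc6a13, Slc38a7 and Slc7a8. For several of them the text below gives groups that do not overlap. The share of all genes tested with such groups was not counted, so this describes the values and adds nothing to the calls. With trimmed-mean scaling, which brings the median of all genes to 0.00, 4 transporters were higher and 10 lower, and the calls over all genes were 2121 higher and 2294 lower in place of 3117 and 1483. Without the 4 libraries with other-tissue markers 7 calls were left (3 higher, 4 lower, against 26.9% of all genes), and without the littermates KODam_HetFetus replicates 1 and 2 there were 5 (1 higher, 4 lower, against 24.1%).

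Knockout fetuses of knockout dams, set against the same HetDam_HetFetus controls, had 11 transporters called, 5 higher and 6 lower. Over all genes the share was 24.7%, with 17.4% higher and 7.31% lower. Because both comparisons rest on the same 4 control livers, their values are given side by side and no overlap is read from them. With trimmed-mean scaling the 11 calls were 3 higher and 8 lower, and those of all genes 1115 higher and 1403 lower in place of 2053 and 863. The count was 6 with litter as a random block, 5 without the 4 libraries with other-tissue markers (against 14.9% of all genes) and 7 without KODam_KOFetus replicates 1 and 2, presumed littermates (2 higher, 5 lower, against 20.8%). It was 5 without HetDam_HetFetus replicate 4 or KODam_KOFetus replicate 1, 6 without KODam_KOFetus replicate 4 and 7 without HetDam_HetFetus replicate 3. Loss of the fetus's own Ppara, KODam_KOFetus minus KODam_HetFetus, gave 0 calls among the 29 by limma, with 1 member (Slc6a9) at an unadjusted p under 0.05. Over all genes 0.822% were called there, 0.0254% higher and 0.796% lower, and 1287 of 11805 had an unadjusted p under 0.05. The maternal liver Cpt2 knockout also gave 0 calls among the 29, with 4 at an unadjusted p under 0.05. Of all genes 0% were called, and 1311 of 11805 had an unadjusted p under 0.05. The difference between the maternal Ppara and maternal Cpt2 effects gave 0 calls among the 29, with 5 at an unadjusted p under 0.05. Here too 0% of all genes were called, and 2343 of 11798 had an unadjusted p under 0.05.

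**Figure D1:**
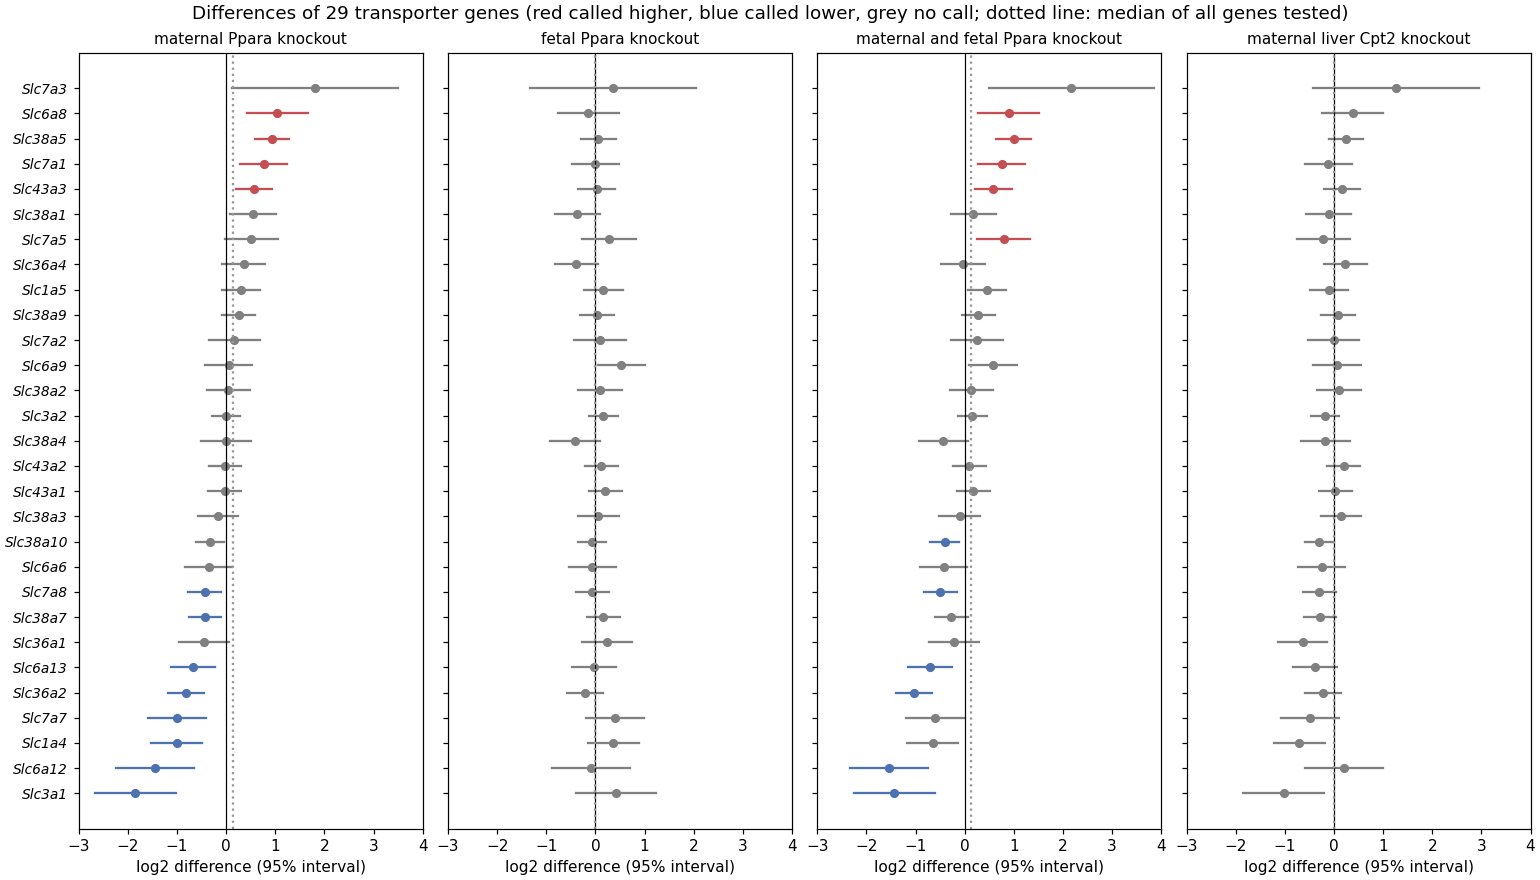
Log2 differences of the 29 tested transporter genes in 4 comparisons, each point a limma estimate with its 95% interval, ordered by the maternal Ppara difference. Red points are called higher and blue points lower at an adjusted p under 0.05; the dotted line marks the median of all genes tested. Calls appear in the maternal Ppara panel (4 higher, 8 lower) and in the panel for both knockouts (5 higher, 6 lower) and in neither of the others.

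Promoter sequence is shown for 5 transporters that moved in the maternal Ppara comparison, since members of 1 pathway may share regulatory motifs: Slc38a5 and Slc7a1, which rose, and Slc3a1, Slc1a4 and Slc7a7, which fell. RefSeq windows of GRCm38.p6, from 250 bases before to 50 bases after a start site, were at hand for 19 of the 29 genes (35 windows). Each was searched on both strands for TGATGNAAN, the composite element bound by C/EBP and ATF factors, for TGACNNNGC, the core of the antioxidant response element, and for 2 copies of AGGTCA spaced by 1 base, the direct repeat bound by PPAR and RXR. No matches overlapped in a printed window. Capitals mark a match and every sequence runs 5′ to 3′ on the strand of its gene.
Slc38a5, chrX:8271131-8271430, plus strand: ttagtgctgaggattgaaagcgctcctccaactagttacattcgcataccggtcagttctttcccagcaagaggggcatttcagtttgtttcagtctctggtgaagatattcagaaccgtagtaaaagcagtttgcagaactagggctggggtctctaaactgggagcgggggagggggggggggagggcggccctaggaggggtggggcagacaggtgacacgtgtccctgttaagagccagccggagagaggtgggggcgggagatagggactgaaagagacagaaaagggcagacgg
Slc7a1, chr5:148399855-148400154, minus strand: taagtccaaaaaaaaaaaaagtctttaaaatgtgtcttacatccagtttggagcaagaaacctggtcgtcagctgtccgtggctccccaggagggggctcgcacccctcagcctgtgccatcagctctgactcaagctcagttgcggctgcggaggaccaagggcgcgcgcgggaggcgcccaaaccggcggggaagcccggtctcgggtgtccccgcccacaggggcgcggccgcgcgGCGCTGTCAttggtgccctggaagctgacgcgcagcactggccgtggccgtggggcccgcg
Slc3a1, chr17:85028097-85028396, plus strand: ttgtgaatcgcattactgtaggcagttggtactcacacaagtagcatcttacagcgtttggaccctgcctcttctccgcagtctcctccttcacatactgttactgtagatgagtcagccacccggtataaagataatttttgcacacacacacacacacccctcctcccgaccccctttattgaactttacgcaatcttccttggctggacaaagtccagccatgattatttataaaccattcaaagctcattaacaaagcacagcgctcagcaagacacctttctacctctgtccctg
Slc1a4, chr11:20332664-20332963, minus strand: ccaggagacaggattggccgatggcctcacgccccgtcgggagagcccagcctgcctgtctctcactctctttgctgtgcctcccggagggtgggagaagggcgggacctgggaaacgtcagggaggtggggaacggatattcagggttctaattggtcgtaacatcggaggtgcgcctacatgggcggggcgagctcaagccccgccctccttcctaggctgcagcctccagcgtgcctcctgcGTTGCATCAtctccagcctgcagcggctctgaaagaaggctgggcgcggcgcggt
Slc7a7, chr14:54417895-54418194, minus strand: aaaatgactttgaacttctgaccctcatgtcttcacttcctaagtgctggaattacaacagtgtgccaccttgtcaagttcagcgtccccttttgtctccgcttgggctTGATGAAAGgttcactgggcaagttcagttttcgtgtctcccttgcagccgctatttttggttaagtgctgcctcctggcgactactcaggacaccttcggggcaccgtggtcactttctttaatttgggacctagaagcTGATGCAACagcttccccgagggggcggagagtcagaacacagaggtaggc

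The C/EBP-ATF element was found in windows of Slc1a4 (GTTGCATCA, read on the opposite strand, beginning 5 bases before the start site) and of Slc7a7 (TGATGAAAG from base -141 and TGATGCAAC from base -1), and in 3.95% of all 32851 windows. The antioxidant core was found for Slc7a1 (GCGCTGTCA, read on the opposite strand, from base -11), Slc36a1, Slc38a2, Slc43a1, Slc6a13 and Slc6a9, and in 12.4% of all windows. None of the 35 transporter windows held the AGGTCA repeat, which 0.0396% of all windows did. For Slc38a5 and Slc3a1 no match says only that these letters are not in the window shown. The printed genes are a selection from those called under maternal loss that had a window. Slc6a12, Slc38a7 and Slc7a8, whose windows held no match, and Slc6a13 are not shown. A match is a description of the sequence and was not tested as a site.

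Of the 2 heavy chains 1 fell. Slc3a1 (chromosome 17, 85028347 to 85064241), the heavy chain that carries the cystine and dibasic amino acid exchanger to the membrane, was 3.18, 2.99, 3.28 and 4.46 in HetDam_HetFetus, 1.07, 1.78, 1.30 and 2.37 in KODam_HetFetus, and 1.74, 2.65, 2.37 and 1.43 in KODam_KOFetus. All 8 livers of knockout dams lay under all 4 controls. It fell by 1.85 ± 0.392 (SE) with maternal loss, 3.60-fold (limma adjusted p = 0.00161), and by 1.43 ± 0.392 with both losses (limma adjusted p = 0.0137). The maternal call held in all 22 alternatives, at limma adjusted p from 0.00121 to 0.0242, also without the 4 libraries with other-tissue markers. In the double knockout the call was lost without HetDam_HetFetus replicate 4, the highest of the controls and a library with muscle markers (-1.10, limma adjusted p = 0.0525), without KODam_KOFetus replicate 4 (-1.23, 0.0524) and without the 4 libraries (-1.29, 0.0763). An exon of Slc3a1 overlaps Prepl on the opposite strand, and since the use of strand in counting is not stated, reads of the pair cannot be told apart; Prepl, a peptidase-like gene, fell by 0.84 in the maternal comparison (limma adjusted p = 0.00158). Slc3a2, the heavy chain of most other exchangers, differed by -0.01 and 0.16 in the same comparisons (limma adjusted p = 0.98 and 0.412) and stayed between 4.15 and 4.96 over all 20 libraries.

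**Figure D2:**
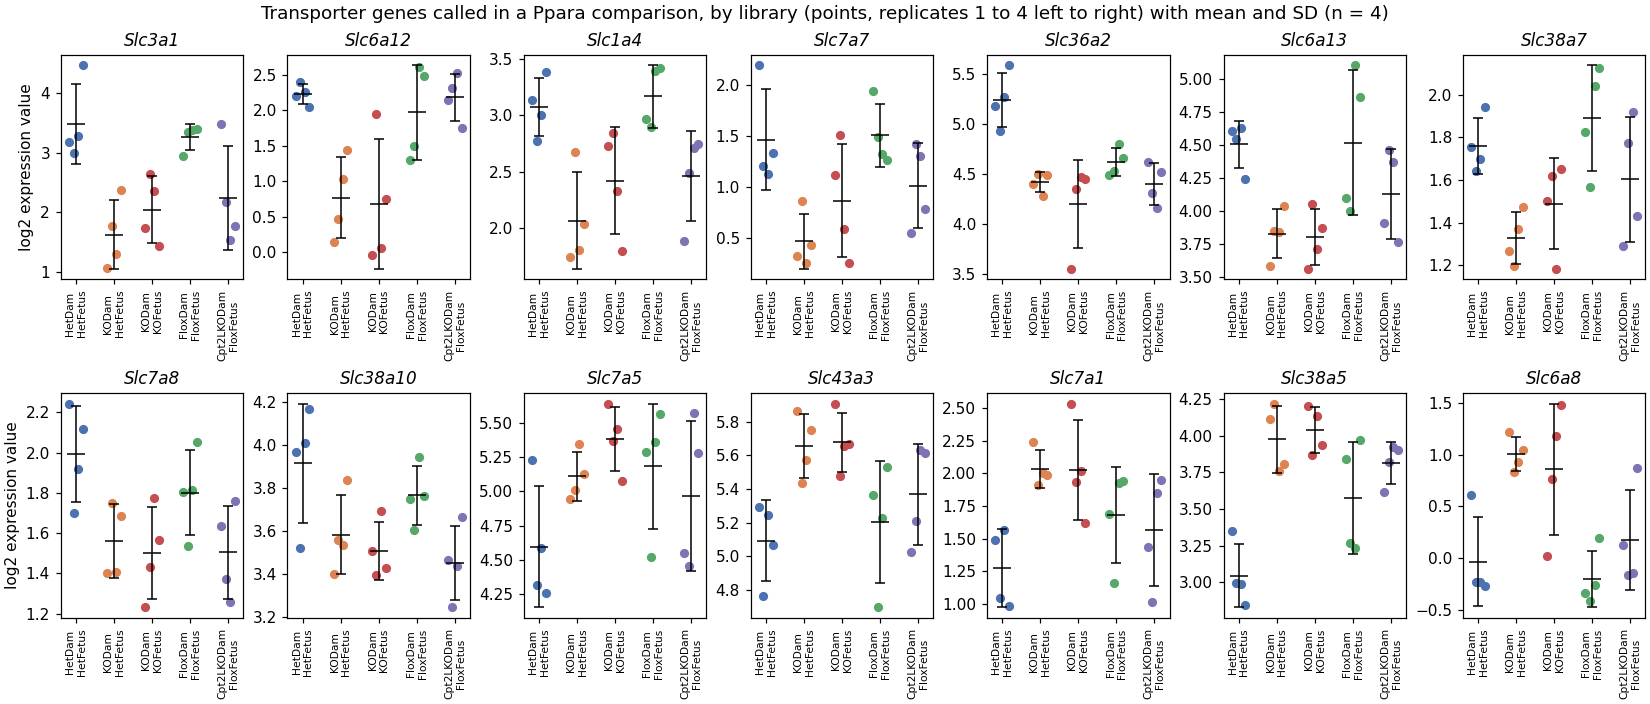
Log2 expression values of the 14 transporter genes called in a Ppara comparison, by group, with each library as a point and the group mean and SD (n = 4) as bars. For Slc3a1, Slc36a2, Slc6a12 and Slc6a13 the 4 HetDam_HetFetus points lie above all 8 points of knockout dams. For Slc38a5, Slc7a1 and Slc43a3 they lie below them, and for the other genes shown the points overlap. The genes shown were chosen by calls on these same values, and how many of all genes tested lie apart in this way was not counted.

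Of the light chains, 3 of 10 were tested. Slc7a7, the light chain that exchanges cationic for neutral amino acids, was 2.19, 1.20, 1.13 and 1.33 in HetDam_HetFetus and 0.32, 0.86, 0.26 and 0.44 in KODam_HetFetus, with no overlap. It fell by 0.99 ± 0.281 (limma adjusted p = 0.00990), 1.99-fold. Its highest control was replicate 1, the library with intestine markers, and without the 4 libraries the fall was 0.70 with no call (-0.70, limma adjusted p = 0.0751). In KODam_KOFetus it was 1.12, 1.51, 0.60 and 0.26, spread across the ranges of both other groups, at -0.60 ± 0.281 against the controls (limma adjusted p = 0.123). Without KODam_KOFetus replicate 2 that difference was called (-0.81, limma adjusted p = 0.0429), as it was without the littermates KODam_KOFetus replicates 1 and 2 (-1.04, limma adjusted p = 0.0252). Oxa1l overlaps an exon of Slc7a7 on the opposite strand and differed by -0.12 in the maternal comparison (limma adjusted p = 0.459).

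Slc7a8, an exchanger of small and large neutral amino acids that lies 302 kb from Slc7a7 on chromosome 14, read 2.24, 1.70, 1.92 and 2.12 in the controls, 1.40, 1.75, 1.41 and 1.69 under maternal loss, and 1.23, 1.43, 1.77 and 1.57 in the double knockout. The ranges touched: 1 liver of each knockout-dam group lay above the lowest control. It was called lower in both comparisons, by -0.43 ± 0.161 and -0.49 ± 0.161 (limma adjusted p = 0.0398 and 0.0321). Both calls were close to the threshold. The maternal call was lost without HetDam_HetFetus replicate 1, 3 or 4 or KODam_HetFetus replicate 1 or 3 (differences from -0.46 to -0.35, limma adjusted p from 0.0535 to 0.121), with litter as a random block (-0.44, limma adjusted p = 0.0694), without the littermates (-0.45, limma adjusted p = 0.111) and without the 4 libraries (-0.25, limma adjusted p = 0.384). The call in the double knockout was lost without HetDam_HetFetus replicate 1, 3 or 4 or KODam_KOFetus replicate 1, 2 or 4 (differences from -0.52 to -0.40, limma adjusted p from 0.0502 to 0.0993), with litter as a random block (-0.46, limma adjusted p = 0.0786), without the littermates KODam_KOFetus replicates 1 and 2 (-0.32, limma adjusted p = 0.237) and without the 4 libraries (-0.28, limma adjusted p = 0.379).

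Slc7a5, the exchanger that brings in leucine and other large neutral amino acids, went the other way. Its values were 5.23, 4.31, 4.59 and 4.26 in HetDam_HetFetus, 4.94, 5.01, 5.35 and 5.13 in KODam_HetFetus, and 5.64, 5.37, 5.45 and 5.08 in KODam_KOFetus. The first control liver overlapped the knockout-dam groups and the other controls lay under them. FloxDam_FloxFetus, the other control group, was 5.29, 4.52, 5.36 and 5.57 and overlapped the knockout-dam groups. Slc7a5 was higher by 0.79 ± 0.258 in the double knockout (limma adjusted p = 0.0325). The maternal difference of 0.51 ± 0.258 was not called (limma adjusted p = 0.122) unless HetDam_HetFetus replicate 1 was left out (0.72, limma adjusted p = 0.0360). The double-knockout call was lost without HetDam_HetFetus replicate 2, 3 or 4 or KODam_KOFetus replicate 1 or 3 (limma adjusted p from 0.0616 to 0.0943), without the littermates KODam_KOFetus replicates 1 and 2 (0.67, limma adjusted p = 0.151), with litter as a random block (0.76, limma adjusted p = 0.0547) and with trimmed-mean scaling (0.67, limma adjusted p = 0.0538). Slc7a11, the cystine and glutamate exchanger that amino acid shortage is known to induce, reached at most -3.27 and was not tested.

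Of the 3 cationic carriers tested, only Slc7a1 was called, and it was higher. Slc7a1 (chromosome 5, 148327410 to 148399904), the widely expressed arginine and lysine carrier, was 1.49, 1.05, 1.56 and 0.99 in HetDam_HetFetus, 2.24, 1.91, 2.00 and 1.98 in KODam_HetFetus, and 2.53, 1.94, 2.02 and 1.62 in KODam_KOFetus. Every liver of a knockout dam lay above every HetDam_HetFetus liver. FloxDam_FloxFetus, the other control group, was 1.69, 1.16, 1.93 and 1.94 and overlapped both knockout-dam groups. The rises were 0.76 ± 0.228 (limma adjusted p = 0.0135) and 0.75 ± 0.228 (limma adjusted p = 0.0226). The maternal call was lost without the littermates (0.72, limma adjusted p = 0.0777) and without the 4 libraries (0.73, limma adjusted p = 0.0541), with little change in size. The call in the double knockout was lost without HetDam_HetFetus replicate 2 or 4 or KODam_KOFetus replicate 1 (limma adjusted p from 0.0597 to 0.0806), without the littermates KODam_KOFetus replicates 1 and 2 (0.54, limma adjusted p = 0.151), with litter as a random block (0.71, limma adjusted p = 0.0553) and without the 4 libraries (0.75, limma adjusted p = 0.0815). Slc7a3, a second cationic carrier, was -1.08, -2.28, -1.08 and -5.17 in the controls, -0.39, -0.91, -0.25 and -0.82 under maternal loss, and -0.31, 0.04, -0.73 and 0.07 in the double knockout. The controls lay below all 8 livers of knockout dams, whose 2 groups overlapped each other, but the control values were wide apart, and the differences from them of 1.81 ± 0.805 and 2.17 ± 0.805 were not called (limma adjusted p = 0.0816 and 0.0553). Without HetDam_HetFetus replicate 1 or 3 both were called (limma adjusted p from 0.0359 to 0.0484), and with a pseudocount of 1 the second was 0.54 (limma adjusted p = 0.0361). Slc7a2, the cationic carrier of adult liver, differed by 0.17 and 0.25 (limma adjusted p = 0.621 and 0.476).

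Among the Slc1a carriers, Slc1a4 fell. This sodium-coupled carrier of alanine, serine and cysteine was 3.13, 2.77, 3.00 and 3.39 in HetDam_HetFetus and 1.74, 2.68, 1.80 and 2.04 in KODam_HetFetus. The groups did not overlap, although KODam_HetFetus replicate 2 came close to the lowest control. The fall was 1.01 ± 0.248, 2.01-fold (-1.01, limma adjusted p = 0.00413), and without the 4 libraries it was 0.82 with no call (-0.82, limma adjusted p = 0.0608). In KODam_KOFetus the values were 2.72, 2.84, 2.33 and 1.79, of which 1 overlapped the controls, and the difference of -0.65 ± 0.248 was not called (limma adjusted p = 0.0602). It was called with trimmed-mean scaling (-0.78, limma adjusted p = 0.0252), without KODam_KOFetus replicate 2 (-0.79, limma adjusted p = 0.0333) and without the littermates KODam_KOFetus replicates 1 and 2 (-1.02, limma adjusted p = 0.0187). Slc1a5, the related glutamine carrier, read 5.99, 5.39, 5.71 and 5.71 in the controls, 6.17, 5.78, 6.08 and 5.94 under maternal loss, and 6.35, 6.20, 6.19 and 5.89 in the double knockout. These ranges overlapped and neither difference, 0.29 ± 0.186 and 0.46 ± 0.186, was called (limma adjusted p = 0.216 and 0.0766).

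The Slc38a family, sodium-coupled carriers of glutamine and other neutral amino acids, had 8 of 11 members tested, with 1 called higher and 1 lower under maternal loss. Slc38a5 (chromosome X, 8271381 to 8280179), which exchanges glutamine, serine and asparagine for protons, was higher in every liver of a knockout dam. It was 3.35, 2.99, 2.99 and 2.85 in HetDam_HetFetus, 4.12, 4.22, 3.76 and 3.81 in KODam_HetFetus, and 4.20, 3.87, 4.14 and 3.94 in KODam_KOFetus. All 8 livers of knockout dams lay above all 4 controls. The rise was 0.93 ± 0.166 with maternal loss, 1.91-fold (limma adjusted p = 0.000511), and 0.99 ± 0.166, 1.99-fold, with both (limma adjusted p = 0.000750). Both calls held in every alternative run, 22 for each. The Cpt2-arm livers stood at 3.84, 3.27, 3.23 and 3.97 in FloxDam_FloxFetus and 3.61, 3.82, 3.92 and 3.91 in Cpt2LKODam_FloxFetus, and overlapped those of the knockout dams. HetDam_HetFetus minus FloxDam_FloxFetus, the other control group, was -0.53 ± 0.166 (unadjusted p = 0.00458, limma adjusted p = 0.166).

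Slc38a7, a lysosomal glutamine and asparagine carrier, was 1.75, 1.64, 1.70 and 1.94 in the controls and 1.27, 1.20, 1.37 and 1.47 under maternal loss, without overlap. Its fall of 0.43 ± 0.158 was called (limma adjusted p = 0.0363). The call was lost without HetDam_HetFetus replicate 1, 3 or 4 or KODam_HetFetus replicate 1, 2 or 3 (limma adjusted p from 0.0519 to 0.0981), with litter as a random block (-0.41, limma adjusted p = 0.0629), without the littermates (-0.34, limma adjusted p = 0.221) and without the 4 libraries (-0.34, limma adjusted p = 0.226). KODam_KOFetus, at 1.50, 1.62, 1.18 and 1.65, overlapped both other groups. Slc38a7 was not called in the double knockout, except with trimmed-mean scaling (-0.39, limma adjusted p = 0.0380). Slc38a10, a less studied member, was 3.97, 3.52, 4.01 and 4.17 in the controls, 3.40, 3.56, 3.54 and 3.84 under maternal loss and 3.51, 3.40, 3.70 and 3.43 in the double knockout. The second control liver sat among the knockout-dam livers and the other controls above them. It was called lower in the double knockout (-0.41 ± 0.137, limma adjusted p = 0.0354), and not under maternal loss (-0.33 ± 0.137, limma adjusted p = 0.0611). The first call was lost without HetDam_HetFetus replicate 1, 3 or 4 or KODam_KOFetus replicate 1, 2 or 4 (limma adjusted p from 0.0632 to 0.114), without the littermates KODam_KOFetus replicates 1 and 2 (-0.36, limma adjusted p = 0.151), with litter as a random block (-0.40, limma adjusted p = 0.0645) and without the 4 libraries (-0.22, limma adjusted p = 0.397). The second was made without HetDam_HetFetus replicate 2 (-0.46, limma adjusted p = 0.0106) or KODam_HetFetus replicate 4 (-0.42, limma adjusted p = 0.0304), and with trimmed-mean scaling (-0.47, limma adjusted p = 0.00705).

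Slc38a3 and Slc38a4 were not called. Slc38a3, the main glutamine carrier of hepatocytes, was 6.87, 6.65, 6.95 and 7.28 in HetDam_HetFetus, 6.71, 6.76, 6.73 and 6.90 in KODam_HetFetus, and 6.48, 6.92, 6.99 and 6.93 in KODam_KOFetus, with overlapping ranges and differences of -0.16 and -0.10 (limma adjusted p = 0.535 and 0.725). In the Cpt2 arm it was 5.73, 6.33, 6.66 and 6.87 with a Cpt2f/f dam and 6.58, 6.23, 6.50 and 6.85 with a Cpt2-deleted dam. Slc38a4, an imprinted carrier of neutral and cationic amino acids in liver and placenta, was 5.26, 4.95, 5.57 and 5.29 in the controls, 5.03, 5.13, 5.31 and 5.57 under maternal loss, and 4.53, 4.96, 4.86 and 4.99 in the double knockout. The knockout fetuses lay under all 4 heterozygous fetuses of knockout dams, but the fetal difference of -0.42 ± 0.242 was not called (unadjusted p = 0.0961, limma adjusted p = 0.528). Slc38a2, the carrier that amino acid shortage induces in cultured cells, differed by 0.05 and 0.14 in the maternal and double comparisons (limma adjusted p = 0.883 and 0.663). Slc38a9, the lysosomal arginine sensor of the mTORC1 pathway, differed by 0.25 and 0.28 (limma adjusted p = 0.23 and 0.217). Slc38a1, a glutamine carrier, was higher by 0.54 ± 0.221 under maternal loss without a call (limma adjusted p = 0.0583), and was called without HetDam_HetFetus replicate 1 or 3 or KODam_HetFetus replicate 3 (limma adjusted p from 0.0297 to 0.0466).

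Of the 4 tested taurine, creatine, betaine and GABA carriers of Slc6a, 2 fell (Slc6a12 and Slc6a13), 1 rose (Slc6a8) and Slc6a6 was not called. Slc6a12, the betaine and GABA carrier, was 2.20, 2.40, 2.26 and 2.05 in HetDam_HetFetus, 0.15, 0.47, 1.03 and 1.43 in KODam_HetFetus, and -0.04, 1.94, 0.05 and 0.75 in KODam_KOFetus. No liver of a knockout dam reached the lowest HetDam_HetFetus liver. FloxDam_FloxFetus, the other control group, was 1.30, 1.50, 2.61 and 2.48 and overlapped both knockout-dam groups. Slc6a12 fell by 1.46 ± 0.379 with maternal loss, 2.75-fold (limma adjusted p = 0.00594), and by 1.55 ± 0.379, 2.93-fold, with both (limma adjusted p = 0.00749). The littermates KODam_HetFetus replicates 1 and 2 were the lowest of their group, and without them the difference was -1.0 with no call (limma adjusted p = 0.110). The call in the double knockout held in all 22 alternatives. Slc6a13, a GABA and taurine carrier of liver whose gene ends 4.85 kb from Slc6a12 on chromosome 6, read 4.61, 4.54, 4.63 and 4.25 in the controls, 3.59, 3.85, 3.84 and 4.04 under maternal loss, and 3.56, 4.06, 3.71 and 3.87 in the double knockout. The HetDam_HetFetus livers lay above both other groups. FloxDam_FloxFetus, at 4.10, 4.00, 5.11 and 4.87, overlapped both knockout-dam groups. Slc6a13 fell by 0.68 ± 0.215 and 0.71 ± 0.215 (limma adjusted p = 0.0189 and 0.0237). The maternal call was lost without KODam_HetFetus replicate 1 (-0.59, limma adjusted p = 0.0610) and without both littermates (-0.57, limma adjusted p = 0.133). The second call was lost without HetDam_HetFetus replicate 1 or 3 or KODam_KOFetus replicate 1 or 3 (limma adjusted p from 0.0509 to 0.0660) and without the littermates KODam_KOFetus replicates 1 and 2 (-0.71, limma adjusted p = 0.0657).

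Slc6a8 (chromosome X, 73673133 to 73682502), the creatine carrier, was 0.61, -0.23, -0.23 and -0.27 in HetDam_HetFetus, 1.22, 0.83, 0.93 and 1.05 in KODam_HetFetus, and 0.02, 0.77, 1.18 and 1.48 in KODam_KOFetus. Under maternal loss the groups did not overlap, while 1 knockout fetus fell inside the control range. The rise was 1.04 ± 0.295 (limma adjusted p = 0.0100), 2.06-fold, and without the littermates it was 1.02 with no call (limma adjusted p = 0.0582). In the double knockout it was 0.89 ± 0.295 (limma adjusted p = 0.0340). That call was lost without HetDam_HetFetus replicate 2, 3 or 4 or KODam_KOFetus replicate 3 or 4 (limma adjusted p from 0.0758 to 0.124), with trimmed-mean scaling (0.77, limma adjusted p = 0.0609) and without the 4 libraries (1.13, limma adjusted p = 0.0571). Slc6a6, the taurine carrier, differed by -0.36 and -0.43 with no call (limma adjusted p = 0.224 and 0.176), and was called in the double knockout without HetDam_HetFetus replicate 2 (-0.64, limma adjusted p = 0.0467). Slc6a9, the glycine carrier that supplies heme synthesis in mouse erythroid cells, was 4.41, 4.14, 4.36 and 4.21 in the controls, 4.34, 3.98, 4.74 and 4.26 under maternal loss, and 5.37, 5.11, 4.19 and 4.74 in the double knockout. Its difference from the controls was 0.57 ± 0.230 in the double knockout (limma adjusted p = 0.0737), and 0.79 without KODam_KOFetus replicate 3 (limma adjusted p = 0.0184). B4galt2 overlaps it on the opposite strand and was itself higher by 0.80 in the double knockout (limma adjusted p = 0.0370) and by 0.91 under maternal loss (limma adjusted p = 0.0133).

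Proton-coupled carriers were represented by 3 of 4 members. Slc36a2 (chromosome 11, 55158468 to 55185099), which carries glycine, alanine and proline, was 5.17, 4.93, 5.27 and 5.58 in HetDam_HetFetus, 4.40, 4.50, 4.28 and 4.49 in KODam_HetFetus, and 3.55, 4.34, 4.47 and 4.45 in KODam_KOFetus. Each knockout-dam liver was under each control. It fell by 0.82 ± 0.176 (limma adjusted p = 0.00172), 1.77-fold, and by 1.04 ± 0.176 with both losses (limma adjusted p = 0.000806), 2.05-fold, and both calls held in every alternative run (22 for each). In the Cpt2 arm it was 4.48, 4.53, 4.80 and 4.65 in FloxDam_FloxFetus and 4.61, 4.31, 4.16 and 4.51 in Cpt2LKODam_FloxFetus. HetDam_HetFetus lay above all of these too, by 0.62 ± 0.176 against FloxDam_FloxFetus (unadjusted p = 0.00218, limma adjusted p = 0.150). Slc36a1, a lysosomal proton-coupled carrier 19.2 kb from Slc36a2, differed by -0.46 ± 0.241 under maternal loss (limma adjusted p = 0.140), and was called without HetDam_HetFetus replicate 2 (-0.66, limma adjusted p = 0.0400) and with trimmed-mean scaling (-0.60, limma adjusted p = 0.0295). Slc36a4 differed by 0.36 ± 0.210 (limma adjusted p = 0.187).

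Slc43a3, the purine nucleobase carrier of the facilitative family, was 5.30, 4.76, 5.25 and 5.07 in HetDam_HetFetus, 5.86, 5.43, 5.57 and 5.75 in KODam_HetFetus, and 5.91, 5.48, 5.66 and 5.66 in KODam_KOFetus. All knockout-dam livers were above the HetDam_HetFetus livers. FloxDam_FloxFetus, the other control group, was 5.37, 4.70, 5.23 and 5.53 and overlapped both knockout-dam groups. Slc43a3 rose by 0.56 ± 0.177 and 0.58 ± 0.177 (limma adjusted p = 0.0180 and 0.0231), 1.48-fold and 1.50-fold. The maternal call was lost without HetDam_HetFetus replicate 2 (0.45, limma adjusted p = 0.0671) or KODam_HetFetus replicate 1 (0.49, limma adjusted p = 0.0595) and without the littermates (0.57, limma adjusted p = 0.0669). The second was lost without HetDam_HetFetus replicate 2 or KODam_KOFetus replicate 1 or 4 (limma adjusted p from 0.0502 to 0.0747), without the littermates KODam_KOFetus replicates 1 and 2 (0.57, limma adjusted p = 0.0734), with litter as a random block (0.58, limma adjusted p = 0.0554) and without the 4 libraries (0.74, limma adjusted p = 0.0515). Slc43a1, its neighbour 73.0 kb away on chromosome 2 and a facilitative carrier of leucine and other branched-chain amino acids, was 5.20, 5.05, 5.28 and 5.10 in the controls, 5.21, 4.84, 5.30 and 5.17 under maternal loss, and 5.65, 5.51, 4.98 and 5.18 in the double knockout. These values overlapped, with differences of -0.03 ± 0.159 and 0.17 ± 0.159 (limma adjusted p = 0.896 and 0.442). Slc43a2 differed by -0.02 and 0.10 (limma adjusted p = 0.915 and 0.687).

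**Figure D3:**
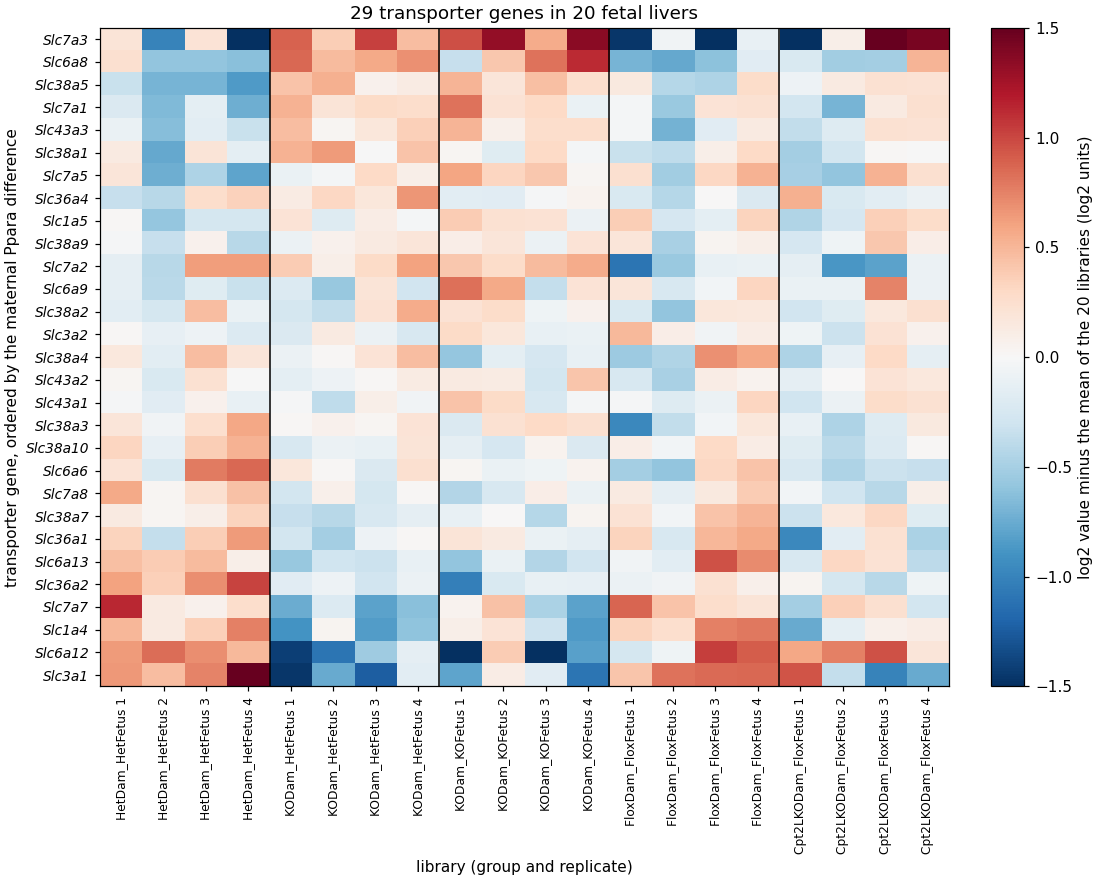
Each tested transporter gene (rows, ordered by the maternal Ppara difference) in each of the 20 libraries (columns, grouped by genotype of dam and fetus), coloured by its log2 value minus its mean over the 20 libraries. Values past the ends of the colour bar take its end colours; the 4 HetDam_HetFetus livers are blue for Slc38a5 (2.85 to 3.35) near the top and red for Slc3a1 (2.99 to 4.46) at the bottom.

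Markers of some other cell types also differed between these groups, not all of them in both knockout-dam groups. Erythroid markers, of which 9 of 10 matched the table and none lacked a value in any group, summed to 1337 to 1849 on the linear scale in HetDam_HetFetus, 2081 to 2693 in KODam_HetFetus and 2185 to 2982 in KODam_KOFetus, so every liver of a knockout dam lay above every control. Of these 9 markers, 2 (22.2%) were called higher under maternal loss and 4 (44.4%) in the double knockout, beside 26.4% and 17.4% of all genes. In FloxDam_FloxFetus, the other control group, the erythroid sum was 1642 to 2527 and overlapped both knockout-dam groups. Neutrophil markers, all 11 of them measured, summed to 5410 to 8222 in the controls and 3173 to 5316 in KODam_HetFetus, again without overlap, with 8 of 11 called lower (72.7%, beside 12.6% of all genes), and to 3804 to 6545 in KODam_KOFetus, with 5 called lower (45.5%, beside 7.31%). The hepatocyte list overlapped, at 77638 to 136411 and 72596 to 101179, with 1 of 10 called higher and 1 lower. Intestine markers, led by Tff3, were 352 to 605 in the controls and 98.6 to 236 in KODam_HetFetus, with 1 of 3 tested called lower. In KODam_KOFetus they were 150 to 539, which overlapped the controls, again with 1 of 3 called lower. Tff3 alone made up 82.8% to 99.1% of the intestine sum in the livers of the Ppara arm, so these sums mostly follow 1 gene. Without Tff3 the intestine sum was 104 in HetDam_HetFetus replicate 1 and at most 28.6 in any other library. Cholangiocyte markers were 18.2 to 35.0 in the controls and 6.83 to 21.2 in KODam_HetFetus, with 2 of 4 tested called lower. In KODam_KOFetus they were 8.66 to 21.2, with 0 of 4 called. Macrophage sums overlapped, at 405 to 500 in the controls, 399 to 466 in KODam_HetFetus and 400 to 523 in KODam_KOFetus. Of 10 macrophage markers 1 was called higher and 4 lower under maternal loss, and 1 higher and 0 lower in the double knockout. In such bulk tissue fewer cells of a type and less RNA per cell cannot be told apart, and the part of these cell types in the transporter differences was not tested.

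The maternal liver Cpt2 knockout, which tests loss of fatty acid oxidation in the dam's liver while the fetus keeps Cpt2, had a median of -0.11 for the 29 transporters and -0.01 for all genes. Slc1a4 had the smallest p: it was 2.97, 2.89, 3.39 and 3.42 in FloxDam_FloxFetus and 1.89, 2.49, 2.71 and 2.75 in Cpt2LKODam_FloxFetus. These groups did not overlap. The difference was -0.71 ± 0.248, with a 95% interval of -1.23 to -0.19 (unadjusted p = 0.00989, limma adjusted p = 0.373). Slc3a1 was 2.94, 3.35, 3.38 and 3.39 with Cpt2f/f dams and 3.48, 2.17, 1.53 and 1.77 with Cpt2-deleted dams, of which 1 liver was the highest of the 8 and the rest lay under the others. Its difference was -1.03 ± 0.392, with an interval of -1.85 to -0.21 (unadjusted p = 0.0168, limma adjusted p = 0.377). Slc36a1 and Slc38a10 differed by -0.64 ± 0.241 and -0.31 ± 0.137 (unadjusted p = 0.0158 and 0.0342, limma adjusted p = 0.377 and 0.413).

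Whether the maternal Ppara effect differed from the maternal Cpt2 effect was tested for each gene as the difference of the 2 differences. Slc6a12, at -1.46 and 0.21 in these comparisons, came lowest in p, with a difference of -1.67 ± 0.536 (interval -2.79 to -0.55, unadjusted p = 0.00571, limma adjusted p = 0.141). For Slc38a5 it was 0.69 ± 0.235 (interval 0.20 to 1.18, limma adjusted p = 0.149), for Slc7a1 0.88 ± 0.322 (interval 0.20 to 1.55, limma adjusted p = 0.167) and for Slc36a2 -0.60 ± 0.249 (interval -1.12 to -0.08, limma adjusted p = 0.198). Slc6a12 was 1.30, 1.50, 2.61 and 2.48 in FloxDam_FloxFetus and 2.14, 2.32, 2.53 and 1.75 in Cpt2LKODam_FloxFetus, with overlapping ranges. Slc7a1 was 1.69, 1.16, 1.93 and 1.94 and then 1.44, 1.01, 1.85 and 1.95, which overlapped too. None of the 29 was called, so a transporter called in the Ppara arm only was not shown to differ between the arms. For Slc3a1 the maternal Ppara and Cpt2 differences were -1.85 and -1.03, and for Slc1a4 they were -1.01 and -0.71, of which the Cpt2 values were not called.

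The 2 control groups, HetDam_HetFetus minus FloxDam_FloxFetus, differed at 0 of the 29 transporters by limma, with 6 at an unadjusted p under 0.05. Of all genes 0.136% were called (0.0593% higher, 0.0763% lower), and 1946 of 11800 had an unadjusted p under 0.05. Left without FloxDam_FloxFetus replicates 3 and 4, which share a dam number, Slc6a6 (0.96, limma adjusted p = 0.0298) and Slc38a3 (0.90, limma adjusted p = 0.0264) were called, and 4.99% of all genes. That pair of livers lay above both others of the group for 20 of the 29 transporters and below them for 1 (72.4% apart). Among all genes it lay above both others for 4656 of 11743 and below them for 2577 (61.6% apart). Between male and female fetuses 0 of 29 were called by limma, with 2 at an unadjusted p under 0.05. Of all genes 0.0508% were called (0.0254% in each direction), and 613 of 11807 had an unadjusted p under 0.05. The median spread within groups was 0.320 (SD, log2) for the 29 transporters and 0.272 for all genes tested.

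The 31 transporters that were not tested had no more than 2 libraries at a log2 value of 0 or more. Slc7a9, the light chain that pairs with Slc3a1, reached 0.69 in HetDam_HetFetus replicate 1, the library with intestine markers. Slc6a19, a neutral amino acid carrier of intestine and kidney, also peaked there at 0.21. Slc6a4, the serotonin carrier, and Slc1a1, a glutamate carrier, peaked in FloxDam_FloxFetus replicate 4 at 0.23 and 0.21. Another 26 stayed under 0 in every library, among them 4 of the 7 Slc1a carriers, and Slc7a12 had no value at all.

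Genes that act on amino acids inside the cell were set beside the carriers; of all genes 26.4% were called higher and 12.6% lower under maternal loss, and 17.4% and 7.31% in the double knockout. Of 35 tested amino acid catabolism genes, 0 were higher and 17 lower under maternal loss, at a median of -0.69, and 0 and 19 in the double knockout, at -0.71. Gls2, the liver glutaminase, fell by 1.64 and 1.09, Amdhd1, of histidine breakdown, by 1.26 and 1.11, and Hal, the histidine lyase that precedes it, by 2.18 under maternal loss (limma adjusted p = 0.000113 and 0.00211, 0.000173 and 0.000739, and 0.000280). Hgd, of tyrosine breakdown, fell by 1.67 in the double knockout (limma adjusted p = 0.000572). Of 22 genes of the ATF4 amino acid response, 3 were higher and 3 lower under maternal loss (13.6% each) and 4 higher (18.2%, near the share of all genes) and 0 lower in the double knockout, where Asns, asparagine synthetase, rose by 0.76 (limma adjusted p = 0.00423). Among 28 genes of amino acid sensing by mTORC1, 11 were higher (39.3%) and 2 lower (7.14%) under maternal loss and 5 higher (17.9%, again near the share of all genes) and 0 lower in the double knockout. Rraga, a Rag GTPase, rose by 0.57 and 0.41 (limma adjusted p = 0.000352 and 0.00503), and Nprl2, a subunit of the complex that restrains the Rags, fell by 1.01 under maternal loss (limma adjusted p = 0.00484). Of 9 other amino acid and peptide carriers or their partners, Slc16a10, an aromatic amino acid carrier, fell (-0.68, limma adjusted p = 0.0136) and Mfsd12, a lysosomal cysteine carrier, rose (0.43, limma adjusted p = 0.0335) under maternal loss, and 0 were called in the double knockout by limma, with 2 at an unadjusted p under 0.05. None of the catabolism, ATF4, sensing or other carrier genes was called in the fetal Ppara or the maternal Cpt2 comparison by limma. Of 35, 22, 28 and 9 tested, 6, 4, 3 and 2 had an unadjusted p under 0.05 in the first and 6, 1, 3 and 2 in the second. Over all genes, 1287 of 11805 did in the first and 1311 of 11805 in the second, and 4596 of 11801 in the double knockout.

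**Figure D4:**
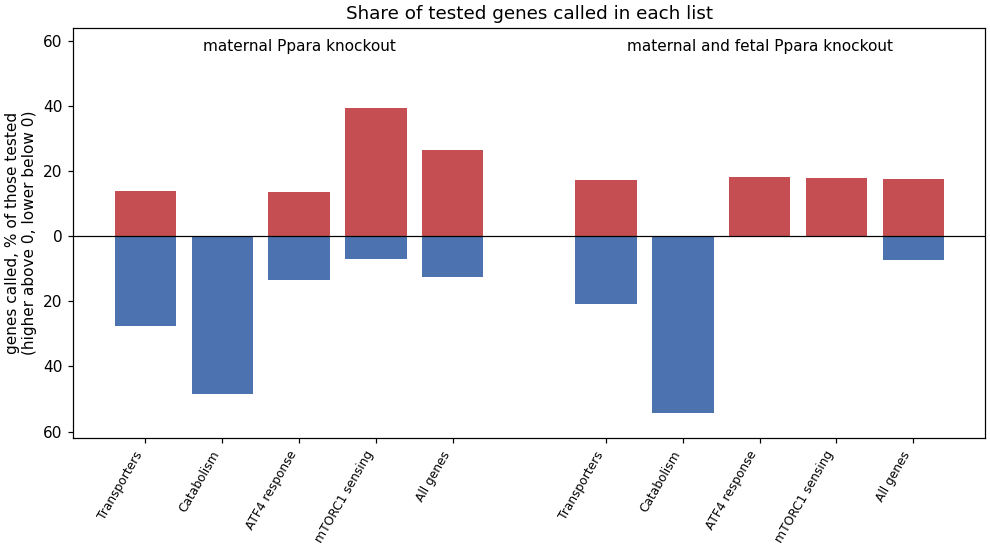
Percent of tested genes called higher (red, above 0) and lower (blue, below 0) among the transporters, amino acid catabolism genes, ATF4 response genes, mTORC1 sensing genes and all genes, in 2 Ppara comparisons that share their controls. Catabolism genes have bars on the lower side alone (48.6% and 54.3%), the transporters have bars on both sides (13.8% higher and 27.6% lower under maternal loss), and of all genes more were higher (26.4%) than lower (12.6%).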

How the data were processed

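RNA was extracted with Trizol and columns from 20 whole fetal livers, and stranded mRNA libraries were sequenced in single reads, per the labels' protocols. The authors deposited log2 values that are quantile-normalized, for 45802 gene entries. The base of the logarithm was inferred from the values. The quantity before it, the aligner and the use of strand in counting are not stated. The build GRCm38.p6 and the tools bcl2fastq 2.17.1.14 and Partek 7.0 were used, per the submitters' processing notes. Depth per library is unknown, so no counting interval is given.

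Genes at a log2 value of at least 0 in 4 libraries (11807) were fitted with limma 3.58.1 in R 4.3.3, with 1 mean per group over all 5 groups, a mean-variance trend and Benjamini-Hochberg adjustment over all genes of a comparison; 0.05 was the threshold. The model had 15 residual degrees of freedom and was tested on simulated data. Tables and plots used Python 3.11.15, pandas 2.3.3 and matplotlib 3.10.9. Any tested transporter could be named; values in every library are given at least for those called (at most 8 in each direction per comparison) and for the 6 with the highest mean. Of each other list, at most the 3 called genes with the smallest p in a comparison are named. Members and lists were chosen with earlier results of these data known. Alternatives changed the scaling, pseudocount, filter, groups fitted, blocks, covariate and trend, or left out libraries. Correlations of the deviations of same-numbered replicates in different groups ran from -0.378 to 0.482 (median 0.0677, 40 pairs). Those of replicates with other numbers ran from -0.546 to 0.503 (median -0.0243, 120 pairs). These ranges overlap widely, which does not decide whether the numbers pair livers. Promoter windows and gene positions came from RefSeq, GRCm38.p6.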

Additional observations from a re-analysis of the deposited data

Results flagged for a closer look

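In 5 of the 145 groups of 4 livers, 1 liver stood far from the other 3 by Dixon's criterion, which chance would give in about 1 group in 20. Slc6a9 was 5.29 in Cpt2LKODam_FloxFetus replicate 3, where the next liver was at 4.46. Slc38a3 was 6.48 in KODam_KOFetus replicate 1, below the next at 6.92, and Slc36a2 was 3.55 in the same liver, below the next at 4.34. Slc3a1 was 2.94 in FloxDam_FloxFetus replicate 1, below the next at 3.35. Slc6a8 was 0.61 in HetDam_HetFetus replicate 1, the liver with intestine markers, above the next at -0.23.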

How the results depend on the processing

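Of 5034 values of single transporters under alternatives, 4908 kept their side of the threshold, 93 lost a call, 33 gained one and 0 changed sign with a call. Most of these values belong to differences that were not called in the main fit, so the 4908 say little about how well calls held. Single calls held in from 10 of 21 alternatives (Slc7a8, double knockout) to all 22 (among them Slc38a5 in both comparisons). The 12 maternal Ppara calls became 7 with a filter at a log2 value of 2 (19 transporters tested), 5 without the littermates KODam_HetFetus replicates 1 and 2 and 7 without the 4 libraries with other-tissue markers, and ran from 8 to 13 when 1 library was left out. The 11 calls with both losses became 6 with no filter, 5 without the 4 libraries, 7 without the littermates KODam_KOFetus replicates 1 and 2 (left out after seeing the data, as were the 4 libraries and the FloxDam_FloxFetus pair) and 6 where litters entered as random effects, and ran from 5 to 11 when 1 library was left out (7 without HetDam_HetFetus replicate 3, 5 without replicate 4, 5 without KODam_KOFetus replicate 1 and 6 without replicate 4). Between the control groups 2 transporters were called without FloxDam_FloxFetus replicates 3 and 4. With the replicate number as a block the maternal calls were 13 and those with both losses 11, and the fetal, Cpt2, difference, control and sex comparisons stayed at 0. The labels do not say that the numbers pair the livers. With litter as a random block the maternal calls were 10. Without Cpt2LKODam_FloxFetus replicate 4, 421 genes in all were called in the difference of the maternal effects, and 0 transporters. Pseudocounts shrink the differences of genes with low values: Slc6a12 differed by -0.59 under maternal loss with a pseudocount of 4, and was still called (limma adjusted p between 0.00239 and 0.110 over its alternatives). Causes of these changes were not tested. The unknown depth limits what can be said of the 31 transporters left out for low values.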
